A study of Nannochloropsis oceanica with 15 samples.

Results

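Gene expression in cells kept in red light was compared between 12 h and 24 h after the switch from white light. The cells were the wild-type strain IMET1 of Nannochloropsis oceanica, a single-celled marine alga that stores carbon as oil. All 15 libraries of the series, in 5 groups of 3, came from cells in columns at 25 °C, lit without a dark phase (80 ± 5 µmol of photons per square metre each second) and bubbled with air holding 0.04% CO2. The labels list 427.5 mg of NaNO3 per litre and aeration at 0.6 vvm (volumes of gas per volume of culture each minute) for all. The red comparison used 6 of the 15 libraries, 3 of red 12 h and 3 of red 24 h. The white 0 h samples were taken just as the light was switched, and blue 12 h and blue 24 h were grown in blue light for the same hours. No label tells separate cultures from repeat samples of 1 culture, so the p-values cover the spread among libraries, part or all of which may be technical. Expression was given as FPKM, fragments per kilobase of gene model divided by a library total, and changes were tested on log2(FPKM + 1). Of 9756 gene models, 9435 reached 1 FPKM in 3 or more of the 6 red libraries and were tested, and the other 321 were not. Cells were measured in bulk, so a change in every cell and a change in the mix of cell states cannot be told apart.

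Eustigmatophyte algae such as Nannochloropsis carry chlorophyll a, which absorbs both blue and red light, and the carotenoids violaxanthin and vaucheriaxanthin, which absorb blue light and little red. Red light therefore feeds photosynthesis mainly through chlorophyll. Blue-light receptors such as cryptochromes and aureochromes, known from related algae, receive little signal in pure red light. The files pair no gene model with a name except DGAT1A, a diacylglycerol acyltransferase of the family that makes triacylglycerol from diacylglycerol. The results below are therefore ordered by the behaviour, level, length and position of the models and not by pathway.

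Red 24 h library 1 lay far from the other 2 libraries of its group, so each red result is given with it and without it. The fragments recovered from the values numbered 3130007 to 6441991 per red library, and those of red 24 h were 3164161 in library 1, 3130007 in library 2 and 4944247 in library 3. Correlated across genes on log2(FPKM + 1), library 1 reached 0.925 with library 2 and 0.902 with library 3, against 0.983 between libraries 2 and 3. Library 1 differed at least 2-fold from library 2 in 1924 genes (20.4%) and from library 3 in 2554 (27.1%), whereas libraries 2 and 3 differed 2-fold in 103 (1.09%). It had the shortest mean fragment of the red libraries, 128.5 nt against 136 to 143 nt. The summed FPKM of its top 100 genes was 38.4% of its total, where libraries 2 and 3 had 29.0% and 27.2% and red 12 h had 25.3% to 25.4%. Its median FPKM was 17.8, and those of the other 5 red libraries were 22.3 to 23.5. On the first principal component of the 6 libraries, with 72.4% of the variance, library 1 scored 69.21 and the others -25.45 to 7.12. The second component, with 18.1%, held the 3 red 12 h libraries at 10.5 to 12.3, red 24 h libraries 2 and 3 at -23.6 and -23.1, and library 1 at 12.53, beside the 12 h libraries. Across all tested genes, however, library 1 correlated at 0.917 with the mean of red 24 h libraries 2 and 3 and at 0.875 with the red 12 h mean.

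With all 6 libraries 206 genes (2.18% of those tested) passed limma's test at an adjusted p under 0.05, of which 152 (1.61%) rose and 54 (0.572%) fell. The change was at least 2-fold in 172 of them (1.82% of those tested), 133 that rose (1.41%) and 39 that fell (0.413%). Without red 24 h library 1, 2711 genes (28.7%) passed, 1532 (16.2%) that rose and 1179 (12.5%) that fell. Most of these changes were small: 357 (3.78%) were at least 2-fold, 284 rises (3.01%) and 73 falls (0.774%), and the median size was 0.53 on the log2 scale for rises and -0.52 for falls. All 206 genes of the 6-library comparison passed in the same direction without library 1. The median change over all tested genes was -0.08 with library 1 and 0.01 without it. The fit without library 1 pooled the spread of 3 red 12 h and 2 red 24 h libraries. Red 24 h libraries 2 and 3 differed 2-fold in 1.09% of genes, against 0.403% to 0.424% between red 12 h libraries. With the smaller group the more variable, the pooled spread can make p-values too small and the count of 2711 too high.

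The count from 6 libraries moved with the libraries used. Leaving out red 12 h library 1 or library 3 left 0 calls in limma, with 1237 and 1095 genes at an unadjusted p under 0.05, and leaving out red 12 h library 2 or red 24 h library 2 left 7. It was 159 without red 24 h library 3. Without library 1 the count was steadier under the loss of a red 12 h library. It was 1821 when red 12 h library 1 was dropped too, 1472 when red 12 h library 2 was and 1491 when red 12 h library 3 was. Dropping a further red 24 h library leaves 1 in that group, whose spread cannot be measured, so counts from such fits are not read as results. The direction of the calls without library 1 was less steady, and falls outnumbered rises in 4 alternatives. Rises were 56.5% of the calls as deposited, but 40.0% after scaling the libraries to an equal sum over all but their 50 most abundant genes and 41.3% with limma's voom on the recovered fragments. They were 49.0% with quantile normalization and 49.6% after removal of each library's trend with gene length. Gene by gene, all 3 red 24 h libraries lay above all 3 of red 12 h in 1732 genes (18.4%) and below in 2218 (23.5%). Without library 1 these were 2852 (30.2%) and 2535 (26.9%).

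**Figure D1:**
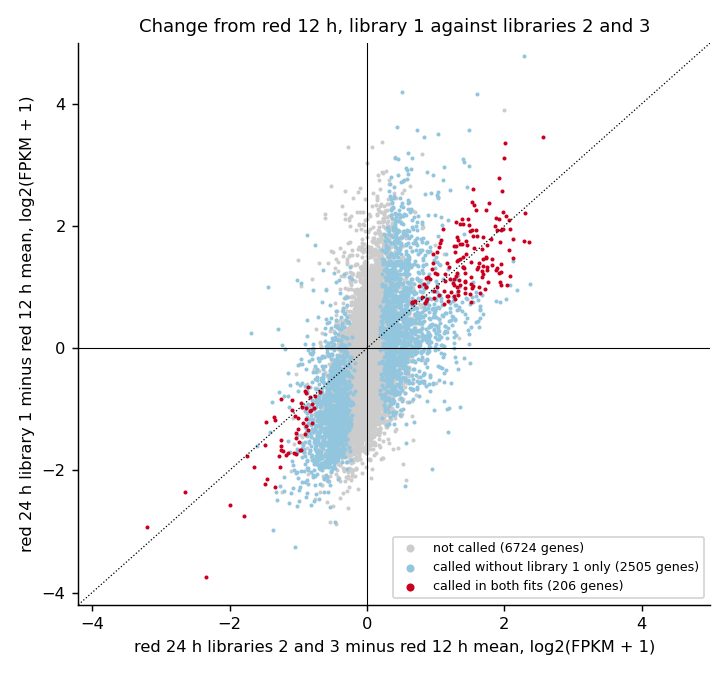
Each point is 1 of the 9435 tested genes, with the mean change of red 24 h libraries 2 and 3 from the red 12 h mean on the x axis and the change of library 1 on the y axis, both in log2(FPKM + 1). The 206 genes called in both fits (red) lie in the 2 corners where all red 24 h libraries moved the same way, and the 2505 called without library 1 only (light blue) spread widely along the axis of library 1.

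Library 1 spread over a wider range of changes than libraries 2 and 3. Counted against the red 12 h mean, 1102 genes were at least 2-fold higher and 1922 at least 2-fold lower in library 1. Library 2 had 309 higher and 195 lower, and library 3 had 299 higher and 69 lower. Among the 1532 genes that rose without library 1, library 1 lay above all red 12 h libraries in 1102 (71.9%), below them in 296 (19.3%) and within their range in 134. Over all tested genes it lay above in 34.3% and below in 57.4%. Among the 1179 that fell, it lay below all red 12 h libraries in 1075 (91.2%) and above in 73. Library 1 was therefore on the same side as libraries 2 and 3 for most calls, more often so for the falls, which is also the side on which it lay for most genes.

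The largest rise under the naming rule, the 2 largest rises and 2 largest falls among genes called in both fits, was that of scaffold00043.g1762. The model spans 666093 to 667533 on the plus strand of scaffold00043, with 3 exons of 1010 nt in all. Its FPKM was 6.97, 6.53 and 4.51 in the red 12 h libraries and 75.1, 43.4 and 36.4 in the red 24 h libraries. All red 24 h libraries stood well above all of red 12 h, library 1 highest, and above blue 24 h, and none reached white 0 h, where the mean was 168.0 ± 16.0 (SD, n = 3). The log2 change was 2.86 ± 0.30 (SE; limma adjusted p = 0.0117) with library 1 and 2.56 ± 0.18 (limma adjusted p = 9.4e-05) without it. In blue light the gene went from 6.58 ± 1.46 to 18.1 ± 3.35 FPKM (SD, n = 3), a rise of 1.34 on the log2 scale (limma adjusted p = 0.000155).

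The second rise was scaffold00289.g8302, on the minus strand of scaffold00289 from 22304 to 24091, with 7 exons of 909 nt in all. Its FPKM was 2.57, 4.65 and 5.11 at 12 h and 50.1, 23.5 and 15.5 at 24 h. The groups did not overlap, and library 1 was again the highest of its group, at more than the mean of 19.5 over libraries 2 and 3. The log2 change was 2.46 ± 0.43 (SE; limma adjusted p = 0.0414) with library 1 and 2.01 ± 0.26 (limma adjusted p = 0.00137) without it. The white 0 h mean was 72.7 ± 13.2 FPKM and the blue means were 3.97 ± 0.536 at 12 h and 7.01 ± 1.62 at 24 h (SD, n = 3). The call from 6 libraries was lost with the equal-sum scaling (limma adjusted p = 0.0556), with the replicate block (0.0875) and with voom (0.0628). Without library 1 it held with the equal-sum scaling and with voom. The replicate block there amounts to leaving out red 12 h library 1 as well, whose number no other library then shares. The log2 change was 1.773 in both, so this setting cannot check a pairing.

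The largest fall was scaffold00245.g6412, on the plus strand of scaffold00245 from 49166 to 51460, with 7 exons of 1169 nt in all. Its FPKM was 20.2, 16.6 and 13.6 at 12 h and 1.32, 0.894 and 0.933 at 24 h. The 3 red 12 h libraries stood near white 0 h, whose mean was 14.3 ± 0.52 (SD, n = 3), and the 3 red 24 h libraries stood near the blue ones, which had means of 0.462 ± 0.253 at 12 h and 0.909 ± 0.244 at 24 h. The low values rested on 3 to 5 fragments per red 24 h library, against 64 to 147 at 12 h. The log2 change was -3.11 ± 0.21 (SE; limma adjusted p = 0.00251) with library 1 and -3.20 ± 0.18 (limma adjusted p = 3.4e-05) without it. It was the 1 gene of the 9435 with at least 10 FPKM in all 3 libraries of red 12 h and under 2 FPKM in all 3 of red 24 h, and 0 genes showed the opposite pattern, a search chosen after values were seen.

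The second fall was scaffold00095.g3340, on the minus strand of scaffold00095 from 38357 to 40251, with 3 exons of 1577 nt in all. Its FPKM was 39.3, 38.9 and 35.3 at 12 h and 1.89, 6.41 and 6.96 at 24 h. Here library 1 was the lowest, and all red 24 h libraries were below all others of white and red 12 h. The log2 change was -2.81 ± 0.38 (SE; limma adjusted p = 0.022) with library 1 and -2.34 ± 0.11 (limma adjusted p = 1.4e-05) without it. In blue light it fell as well, from 24.8 ± 1.12 to 5.86 ± 1.12 FPKM (SD, n = 3; limma adjusted p = 4e-06).

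None of these 4 models overlapped another. All 4 kept their direction in every alternative run. Without library 1 all passed in each alternative that kept both red 24 h library 2 and library 3. With 6 libraries each lost its call when red 12 h library 1 or library 3 was left out, at limma adjusted p of 0.0512 to 0.207, and 3 of the 4, all but scaffold00245.g6412, also when red 12 h library 2 or red 24 h library 2 was left out. DGAT1A, a manual single-exon model of 2030 nt that spans 1 to 2030 of isotig00738 on the plus strand, did not pass. Its FPKM was 34.8, 32.5 and 34.3 at 12 h and 20.4, 33.6 and 30.4 at 24 h. Library 1 was lowest and library 2 lay within the 12 h range. The log2 difference was -0.29 ± 0.21 (SE; limma adjusted p = 0.383) with library 1 and -0.08 ± 0.09 (limma adjusted p = 0.538) without it.

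**Figure D2:**
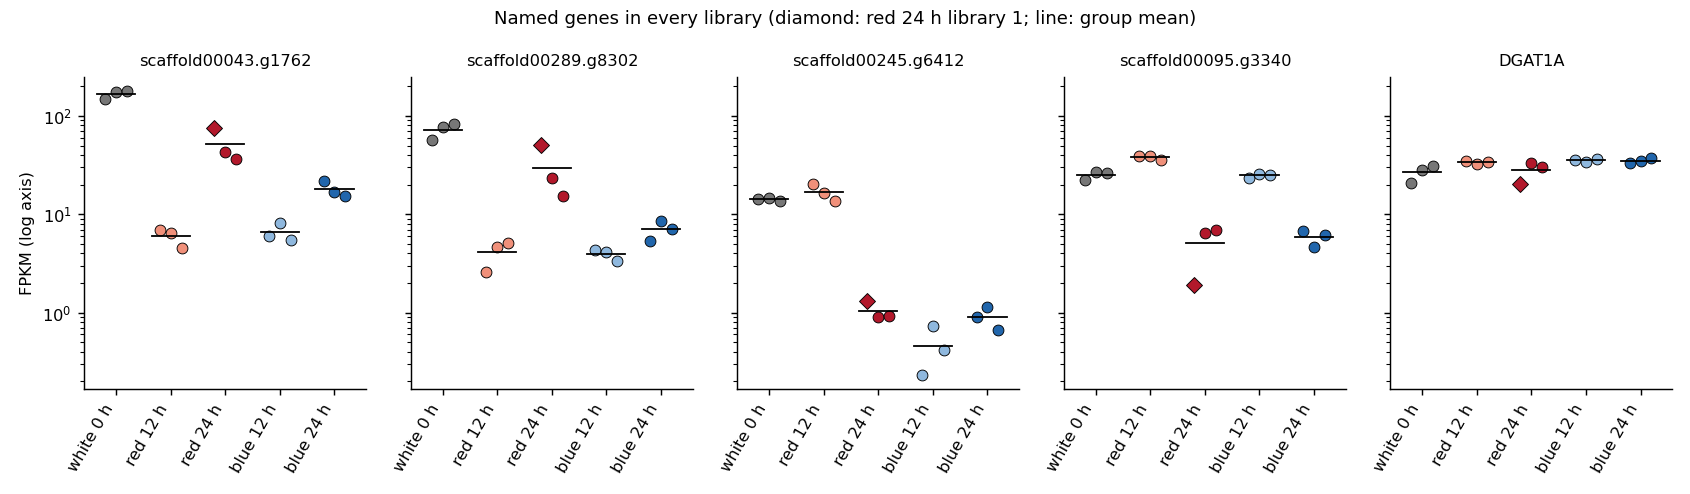
FPKM on a log axis of the 4 named genes and DGAT1A in all 15 libraries, with a line at each group mean and a diamond for red 24 h library 1. The 2 genes that rose reach 15.5 to 75.1 FPKM at red 24 h, between red 12 h and white 0 h, and scaffold00245.g6412 drops to about the level of blue light.

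The genes that rose in red were mostly genes with a high level in white light, a measure that shares no library with the red comparison. The 152 genes that rose with 6 libraries had a median of 85.2 FPKM in white 0 h, against 24.3 over all tested genes. In red their median was 6.09 at 12 h and 20.4 at 24 h. White was still higher than red 24 h in 146 of the 152 (96.1%), against 4552 of the 9435 tested genes (48.2%). By library the medians of these genes were 6.63, 6.20 and 6.02 at 12 h and 17.8, 20.7 and 20.1 at 24 h, with library 1 close to the other 2. The 54 genes that fell went from 26.7 to 10.6 FPKM, from above their white median of 18.9 to below it. Without library 1, the 1532 genes that rose went from 31.0 to 44.6 FPKM with 53.6 in white, and the 1179 that fell from 30.7 to 21.0 with 22.9 in white. White was above the mean of red 24 h libraries 2 and 3 in 819 of these 1532 rises, against 4151 of the 9435 tested genes. With library 1 in the mean it was above in 803 of the rises (52.4%), against 48.2% of all tested genes. The red levels of called genes are what the calls were made on and are given as description.

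**Figure D3:**
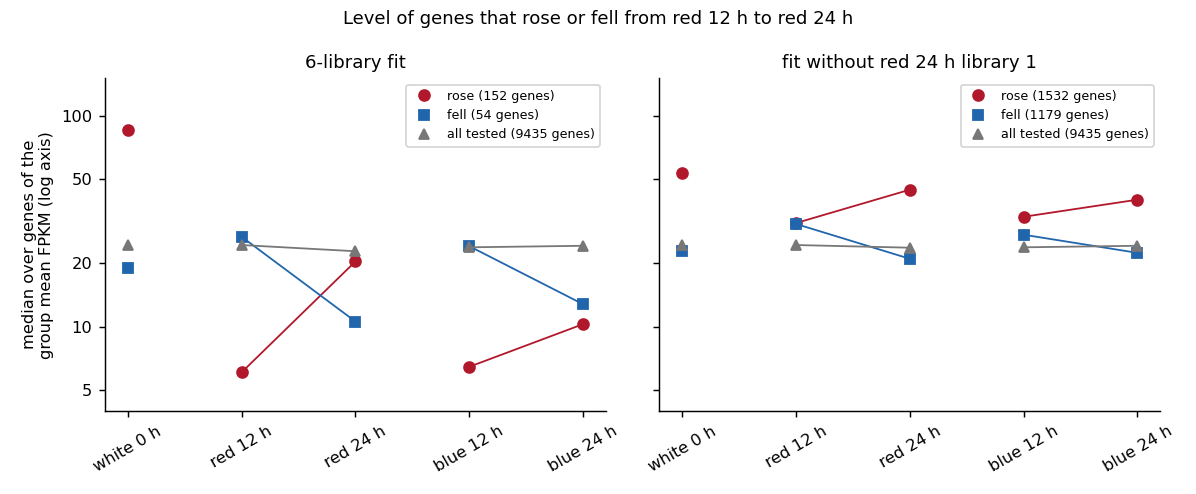
Median FPKM over the genes that rose, the genes that fell and all tested genes in the 5 groups, on a log axis, for the 6-library fit (left) and the fit without red 24 h library 1 (right, where red 24 h is the mean of libraries 2 and 3). In the left panel the genes that rose go from 6.09 to 20.4 FPKM in red, below their white median of 85.2, and from 6.47 to 10.3 in blue.

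When the tested genes were split into 4 groups of near-equal size by white level, the share that rose grew with it. With 6 libraries, 4 genes (0.17%) rose in the lowest group, 8 and 26 in the next 2 and 114 (4.83%) in the highest, where white reached at least 48.8 FPKM. In the 5-library fit the shares were 3.65%, 9.03%, 17.4% and 34.9%. The shares that fell moved less, between 11.5% and 13.9%. The strongest contrast was in the 772 tested genes that were at least 4-fold higher in white 0 h than in blue 12 h on the log2(FPKM + 1) scale, a class chosen after values were seen and built without any red library. With 6 libraries 123 of the 772 rose (15.9%) and 2 fell, though 0 to 4 rose once a red 12 h library or red 24 h library 2 was dropped, and 66 rose when red 24 h library 3 was. Without library 1, 436 rose (56.5%) and 18 fell (2.33%), and in the alternatives of that comparison 339 to 489 rose, apart from the filter at 5 FPKM, where 264 of the 378 left rose. Their median change was 0.369 in library 1, 0.722 in library 2 and 0.736 in library 3. Among the 7172 genes within 2-fold between white 0 h and blue 12 h, 11.0% rose and 13.5% fell without library 1.

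The rise of these 772 genes covered a small part of the distance to white. Their median was 34.5 FPKM in white, 3.21 at red 12 h and 5.78 at red 24 h. Per gene, the gain over the red 12 h mean was a median of 3.62% of the white level in library 1 (quartiles -2.22% and 10.2%), 7.12% in library 2 (2.74% and 12.4%) and 7.99% in library 3 (4.20% and 12.97%). In blue light the same gain was 0.407%, 0.320% and 0.601% in the 3 libraries, with quartiles from -2.66% to 6.39%. Of these genes 221 (28.6%) rose and 124 (16.1%) fell in blue, but blue 12 h served to choose the class, so the blue values are description. Whether some RNA of white-light cells was in the red 24 h libraries, which would add to each of these genes by a share of its white level, was not tested.

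Gene length went with the change, most in library 1. The genes were split into 4 groups of near-equal size by exon length. In the shortest, up to 1167 nt of exons, the median change from the red 12 h mean was 0.237 in library 1, 0.155 in library 2 and 0.050 in library 3. In the longest, from 2546 nt, it was -0.653, -0.187 and -0.046. Scaling to an equal sum moved the 6-library median of all genes from -0.08 to -0.256, with the shortest group at -0.0235 and the longest at -0.470. As deposited, the order of the 3 libraries was the same at both ends, with library 3 nearest 0. Without library 1, 20.1% of the shortest group rose and 7.71% fell, while 10.1% of the longest rose and 18.9% fell. After removal of each library's trend with length, the shortest group had 350 rises and 279 falls and the longest 324 and 355. On the log2(FPKM + 1) scale, 750 genes were at least 2-fold higher in library 1 than the mean of libraries 2 and 3. Their median exon length was 966 nt. It was 1866 nt for the 1413 genes at least 2-fold lower than that mean, against 1723 nt over all tested genes. With this correction the white-high class had 446 rises and 22 falls without library 1, against 436 and 18, and 218 rises and 5 falls with 6 libraries, against 123 and 2. Fragment length moved with the same library, and its part in the length pattern was not tested.

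**Figure D4:**
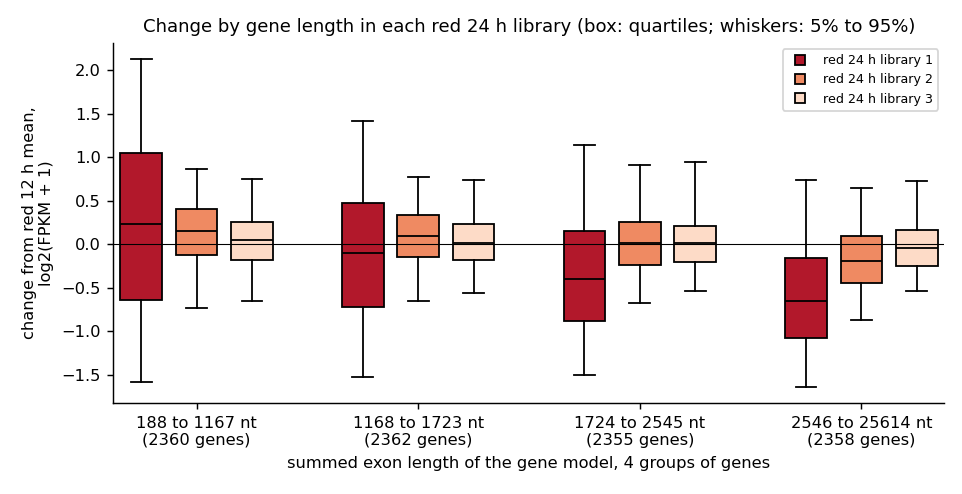
Change from the red 12 h mean in log2(FPKM + 1), in 4 groups of genes by summed exon length, for each red 24 h library, with boxes at the quartiles, a line at the median and whiskers at the 5th and 95th percentiles. Library 1 runs from a median of 0.237 in the shortest group to -0.653 in the longest and has the widest boxes.

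Other properties of the models went with the calls less. The share that rose in the 5-library fit was 15.5% for models of 1 exon, 16.2% for 2 to 3 exons, 17.7% for 4 to 7 and 14.7% for 8 or more. The share that fell ran from 11.8% for 1 exon to 14.2% for 8 or more. Of the 460 tested models that are first or last on their scaffold 12.0% rose and 15.7% fell, against 16.5% and 12.3% of the other 8975.

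Genes that rose lay next to each other more than the share over all genes. Places were counted on each side of every called gene, so an adjacent pair called alike enters from both sides. With 6 libraries, 36 of the 294 places beside genes that rose held a gene that rose too (12.2%), against 1.61% of all tested genes. Of the 105 places beside genes that fell, 2 held a gene that fell (1.9%, against 0.572%). In the 5-library fit the shares were 21.6% against 16.2% for rises and 18.3% against 12.5% for falls. Neighbouring models can share reads where they overlap, so these are counts and no test.

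Without library 1, 6 runs of at least 5 adjacent tested models rose together, 42 models in all, and 0 such runs fell. The longest lay on scaffold00295 from 1075109 to 1112074 and held 11 models, 7 of them also called with 6 libraries. Their median FPKM per library was 2.08, 2.11 and 1.83 at 12 h and 8.23, 8.22 and 9.25 at 24 h, so library 1 stood with libraries 2 and 3. The medians were 65.8 in white, 2.82 at blue 12 h and 3.18 at blue 24 h. A second run of 6 models followed on the same scaffold from 1118321 to 1128895, near its last model, with medians of 1.44 at red 12 h, 8.21 at red 24 h and 64.6 in white.

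The other 4 runs were also highest in white and rose in red to well below that level. A run of 7 models on scaffold00026, from 1470528 to 1494702, ended with the scaffold's last model and went from a median of 2.32 to 6.95 FPKM, with 56.5 in white. Library 1 was lowest there, at 3.68 against 7.17 and 6.07. The run of 7 on scaffold00259, from 12756 to 31400, went from 9.09 to 30.0 with 189 in white, and its red 24 h libraries had 23.9, 27.0 and 21.1. On scaffold00007, from 839541 to 852235, 6 models went from 1.45 to 5.71 with 44.0 in white, at 5.71, 6.08 and 5.6 by library. On scaffold00043, from 3796 to 22640, 5 models went from 3.47 to 10.4 with 90.0 in white, at 8.71, 9.19 and 10.7 by library. The red gain was 7.70% to 11.1% of the white median in all 6 runs, and the blue gain -1.88% to 0.929%. The red 24 h levels behind these gains are medians over models of the mean of all 3 libraries, library 1 included. Such a median can exceed that of every library, as on scaffold00259. The runs were chosen by their rise in red, so the red gain is description. A part of white-light RNA in this gain was not tested either. Of the 42 models, 5 rose (11.9%) and 4 fell (9.52%) in blue light, against 21.0% and 17.2% of all tested genes.

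The same hours in blue light shared no library with the red comparison. In blue, 3603 of the 9435 genes (38.2%) passed, 1979 (21.0%) that rose and 1624 (17.2%) that fell. Of the 152 genes that rose in red with 6 libraries, 82 rose in blue (53.9% of the red list, 4.14% of the blue one) and 8 fell. Of the 54 that fell in red, 41 fell in blue (75.9% of the red list, 2.52% of the blue one) and 0 rose. Without library 1, 853 of the 1532 rises were also rises in blue (55.7% of the red list, 43.1% of the blue one) and 86 were falls. Of the 1179 falls, 620 were falls in blue (52.6% and 38.2%) and 47 were rises. Across the 9435 genes the red and blue changes correlated at 0.485 with library 1 and 0.527 without it; genes are not independent replicates, and all 12 libraries share the gene models and the hours.

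The change over time differed between red and blue in 179 genes (1.9%) by limma's interaction test over the 12 libraries, with the red change above the blue one in 125 and below it in 54. Without library 1 the difference passed in 1212 genes (12.8%), 716 above (7.59%) and 496 below (5.26%). The 12-library count was 58 to 70 without any 1 library of red 12 h, blue 12 h or blue 24 h. It was 147 when red 24 h library 2 was dropped and 719 when red 24 h library 3 was, where 275 were above and 444 below. Without library 1 and a further red 24 h library, 1 library is left in that group, and counts from such fits are not read as results. The split without library 1 also moved with scaling, with 71.1% above at the same median and 48.6% at an equal sum, against 59.1%. In the 716 genes the median log2 change was 0.43 in red and -0.15 in blue, and 86 of them rose in red and fell in blue. In the 496 it was -0.39 in red and 0.19 in blue, and 47 of them fell in red and rose in blue. The test was made on these red and blue changes, so the medians and counts are given as description.

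The 125 genes above in the 12-library test had a median of 92.2 FPKM in white, 7.77 and 16.5 at red 12 h and 24 h, and 10.0 and 7.41 at blue 12 h and 24 h. Their red and blue levels are what the test was made on and are given as description. Of the 772 white-high genes, 98 (12.7%) were above and 1 below with 12 libraries, and 260 (33.7%) were above and 8 (1.04%) below without library 1. That class was chosen on blue 12 h, which enters this test, so these counts are description. Among the named genes, scaffold00245.g6412 was already at a mean of 0.462 FPKM at blue 12 h. Its difference was -3.50 ± 0.27 (SE, limma adjusted p = 0.000221) with 12 libraries and -3.59 ± 0.28 (limma adjusted p = 6e-06) without library 1. For scaffold00043.g1762 it was 1.52 ± 0.37 (limma adjusted p = 0.0674) and 1.22 ± 0.26 (limma adjusted p = 0.0086). For scaffold00289.g8302 it was 1.79 ± 0.50 (limma adjusted p = 0.114) and 1.34 ± 0.33 (limma adjusted p = 0.0181). The fall of scaffold00095.g3340, which passed in both colours, was not shown to differ between them, at -0.88 ± 0.44 (limma adjusted p = 0.346) and -0.41 ± 0.17 (limma adjusted p = 0.145).

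**Figure D5:**
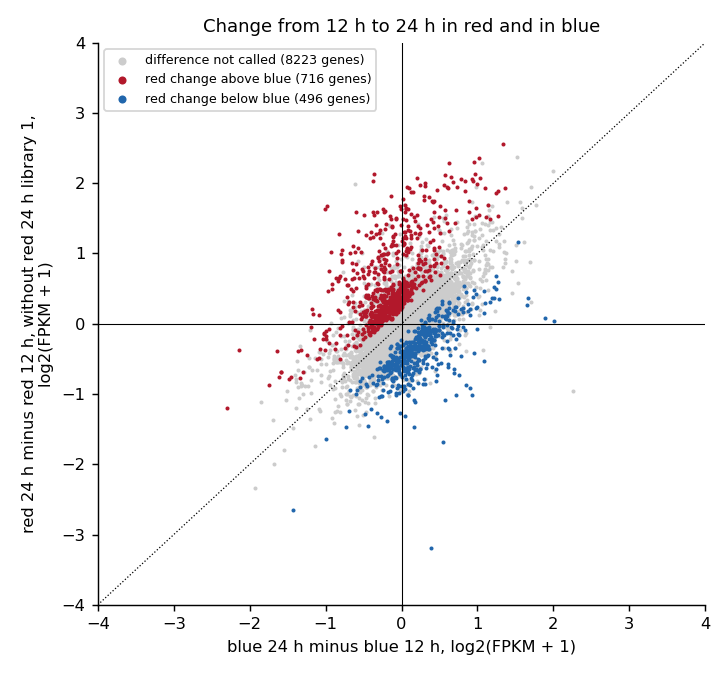
Change from 12 h to 24 h in blue (x axis) and in red without red 24 h library 1 (y axis), in log2(FPKM + 1), for the 9435 tested genes. The 716 genes whose red change was above the blue one (red) lie above the dotted line of equal change, with a tail at red changes over 1. The 496 whose red change was below the blue one (blue) lie under that line. Median changes were 0.43 in red and -0.15 in blue for the 716, and -0.39 in red and 0.19 in blue for the 496. Both sets were chosen by a test on these changes.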

How the data were processed

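The authors deposited FPKM tables, 1 per group, and a table of gene models named IMET v2, with no genome build given in the sources used here. TopHat, TopHat2 2.0.4 and Cufflinks 2.0.4 are named per the submitters' processing notes. Libraries were made with a TruSeq kit from 1 µg of total RNA, per the labels' protocols. The FPKM total is not defined. The third red 12 h library was taken from a column whose name repeats another, through the sample name in the same rows.

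Genes with at least 1 FPKM in at least 3 of the 6 red libraries were tested on log2(FPKM + 1) with limma 3.58.1 in R 4.3.3 (lmFit, eBayes with a trend), two-sided, with Benjamini-Hochberg adjustment over all 9435 genes and a threshold of 0.05. Fold changes of low genes are understated by the pseudocount. The 6-library fit, the fit without red 24 h library 1, the blue fit and both interaction fits used the same genes and were run on simulated data. The simulated libraries varied independently, none was shifted like red 24 h library 1, and changes were put into red 24 h only. The simulation therefore does not cover such a library or the finding of changes in blue. Calls named 2-fold have a log2 change of at least 1.

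FPKM times effective length gave whole fragments within 0.1 for 100% of low values, which gave the depth. The recovered fragments served for depth and for voom. Python 3.11.15, numpy 2.4.6 and pandas 2.3.3 made the descriptions.

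The named genes are the 2 largest rises and 2 largest falls called in both red fits, where the 12 h and 24 h libraries do not overlap and either group's mean reaches 10 FPKM; DGAT1A is added. The comparison, the rule and the gene classes were chosen with earlier results of these data known. A reference table of 160 genes matched 0 models, so no pathway list could be used and no sequence is shown.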

Additional observations from a re-analysis of the deposited data

Results flagged for a closer look

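The change from 12 h to 24 h differed between red and blue light in 179 genes by limma's interaction test over 12 libraries, and in 1212 without red 24 h library 1. For scaffold00245.g6412 the red change minus the blue change was -3.50 on the log2 scale with 12 libraries and -3.59 without library 1. It passed in every alternative of both fits that kept more than 1 red 24 h library. In blue this gene was already low at 12 h, at a mean of 0.462 FPKM, with 1 to 7 fragments per blue library. It therefore had little room to fall there. For scaffold00043.g1762 the red change minus the blue change was 1.22 and for scaffold00289.g8302 it was 1.34 without library 1, where both passed. With 12 libraries neither passed.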

How the results depend on the processing

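With 6 libraries the 206 calls became 469 with quantile normalization, 364 at the same median, 62 at an equal sum over all but the 50 most abundant genes (where the median change of all genes was -0.256), 53 with the replicate block, 467 after removing the trend with length and 111 with voom. They became 2744 with all 15 libraries in the fit, where 44.5% rose against 73.8%. With limma's array weights, whose estimate did not converge, they became 6626. Leaving out 1 library gave 0 to 2711. The other 5 alternatives gave 173 to 229, and 159 without red 24 h library 3. Except in the fit of all libraries more genes rose than fell wherever any passed. Without library 1 the 2711 calls were 1974 to 3108 under the settings and 1472 to 3563 when a library was left out. The red and blue difference over 12 libraries, 179 genes, was 270 at the same median, 79 at the equal sum, 86 with the replicate block and 58 to 1212 when a library was left out; without library 1, 1212 genes, it was 1029 to 1310 and, with a library left out, 893 to 1918. Without library 1, the upper ends of both left-out ranges came from dropping red 24 h library 3 too. That left 1 red 24 h library, whose spread cannot be measured, so these ends do not show how steady the counts are. With red 24 h libraries 2 and 3 both kept, leaving out a library gave 1472 to 1821 calls in red. The red and blue difference then passed in 893 to 1014 genes. The 3603 blue calls were 2919 to 3606. DGAT1A passed in 0 of its alternatives and kept its sign. No named gene reversed. Libraries with the same number in red 12 h and red 24 h correlated in their deviations from the group means at 0.148, -0.003 and 0.136. Those with unlike numbers correlated at -0.19 to 0.048. These values do not settle whether equal numbers mark a pairing. The labels give numbers and state no pairing, so the main fits used none, and the replicate block left 53 calls with 6 libraries. The cause of the shifts in these counts was not tested. Depth limits low values: under 10 fragments stood behind scaffold00245.g6412 in each red 24 h and each blue library and scaffold00095.g3340 in red 24 h library 1.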
